A study of Mus musculus with 16 samples.

Results

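The genes of the cytosolic ribosomal proteins were followed in mouse macrophages grown from stem cells and exposed to lipopolysaccharide or to heme bound to albumin. They were chosen by name: every probe whose accession belongs to a mouse gene symbol that begins with Rpl or Rps and a digit, and Rplp0, Rplp1, Rplp2 and Rpsa, leaving out the Rps6k kinases and symbols of the pseudogene form (1 member, Rps4l, is annotated as a transcribed pseudogene all the same), with the brightest probe standing for its gene. Of 20659 named genes on the array, 88 met this rule with 178 probes, and 86 of the 12759 genes above background were tested. The Rpl10l and Rpl3l probes were not well above background and were not tested. The 86 comprise 46 proteins of the large (60S) subunit, 31 of the small (40S) subunit, 8 paralogs or gene copies (Rpl22l1, Rpl32l, Rpl36al, Rpl39l, Rpl7l1, Rps23rg1, Rps27l and Rps4l) and Rps19bp1, which encodes a partner of Rps19 and is not itself a ribosomal protein.

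Each group held 4 biological replicates, lettered a to d. One group received LPS, the bacterial wall component that activates macrophages through Toll-like receptor 4, at 10 ng/mL for 8 h. Heme-albumin was given at 200 µM in the next group and at 50 µM in another, each for 8 h. The control cells were untreated and stood at 0 h, so treatment and the 8 h of incubation cannot be told apart. On each array the sample RNA was red and RNA of untreated macrophages was green, also on the control arrays, and values are log2 of red over green unless another scale is named. The labels give no strain, age or genotype, and nothing further on the stem cells.

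The cytosolic ribosome joins a 40S subunit, which reads the messenger RNA, to a 60S subunit, which links the amino acids. Each subunit pairs ribosomal RNA with many small proteins, whose messenger RNAs are among the most abundant in a cell. Most of these messengers begin with a cytosine and a run of pyrimidines, the 5′ terminal oligopyrimidine or TOP motif, through which the kinase mTOR and the protein Larp1 control their translation. The genes are usually regarded as a housekeeping set with coordinated expression.

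The macrophage markers were well above background on all 16 arrays for 9 of 9 genes with a probe, and of the 4 embryonic stem cell markers 1, Nanog, was so on all 16 and 3 were so on none. Of the other marker lists, 3 of 4 neutrophil, 1 of 4 hematopoietic progenitor, 1 of 4 lymphocyte, 0 of 3 erythroid and 0 of 4 fibroblast genes were above background on all 16. After LPS 5 macrophage markers rose and 3 fell, and 2 neutrophil markers rose and 1 fell. Of all genes tested, 34.5 percent were called higher and 44.3 percent lower after LPS. Of the less well detected lists, 1 progenitor marker fell and 1 fibroblast marker rose after LPS. The 2 fibroblast markers tested, Col1a2 and Dcn, were well above background on 13 and 4 of 16 arrays. A probe was kept when it was so on all 4 arrays of any group. A marker can therefore be tested only through the group where it is high, and no conclusion is drawn from that rise. The part of other cells in the results below was not tested, and in bulk RNA fewer cells of a type cannot be told apart from less RNA per cell. Between 49.9 and 59.4 percent of probes were well above background per array, and no spot was saturated. The quality mark of the scanning software was to evaluate, rather than in range, for control replicates a, c and d. It was the same for replicates a and d of LPS and of 200 µM, and for replicate d of 50 µM. These arrays were kept. The ribosomal protein spots were bright: for 78 of the 86 genes the signal came from the low-gain scan on all 16 arrays. The scanning software marked many bright spots on the replicate a slide as non-uniform, and these were left out. This removed 122 of 344 ribosomal protein values in replicate a (1.39 percent over all genes) and 0 in replicates b, c and d, so that 55 genes lack at least 1 replicate a value and 11 lack all 4.

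The start sites of the genes show what the set shares beyond its name. RefSeq promoters of build GRCm38.p6 were matched by symbol for 57 of the 77 genes of the 60S and 40S proteins, with 1 start taken per gene. A cytosine followed by at least 4 pyrimidines stood exactly at the annotated start in 12 of the 57 (21.1 percent), against 226 of 10049 tested genes with a promoter entry (2.25 percent). Allowing the motif to begin within 5 bases of the annotated start gave 26 of 57 (45.6 percent), against 19.8 percent. Examples of such starts follow, 20 bases before the start and 10 from it on, with the unbroken pyrimidine run from the start in capitals.
Rps6 (chr4:86857358-86857387, minus strand): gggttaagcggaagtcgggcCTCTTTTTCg
Rpl28 (chr7:4792945-4792974, plus strand): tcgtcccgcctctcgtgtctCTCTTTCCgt
Rpl38 (chr11:114668560-114668589, plus strand): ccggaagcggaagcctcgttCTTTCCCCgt
Rps18 (chr17:33955656-33955685, minus strand): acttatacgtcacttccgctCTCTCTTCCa
Rps15a (chr7:118116138-118116167, minus strand): gcccactctctttctgccatCTTCCCTCgc
Rplp2 (chr7:141447631-141447660, plus strand): cccactgcgtcagcgtcttcCTTTCgccgc
Rps27 (chr3:90213639-90213668, minus strand): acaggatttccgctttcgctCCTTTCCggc
Rps21 (chr2:180257359-180257388, plus strand): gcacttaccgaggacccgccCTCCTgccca
Rps6 encodes the 40S protein phosphorylated by the S6 kinases downstream of mTOR. Rpl38 is needed in mouse for translation of a group of Hox messengers, and Rplp2 encodes an acidic protein of the 60S stalk. The next stretches are from genes whose changes are described below, and none of them carries the motif exactly at its annotated start (capitals again mark any pyrimidine run from the start).
Rps19 (chr7:24884572-24884601, plus strand): agcactccgaaatctcgcgagactcgacgc
Rps15 (chr10:80292411-80292440, plus strand): gccctcccggcagagctcgcgataactgcg
Rpl24 (chr16:55966255-55966284, plus strand): taggaagaaagctgttgctaggaaacagac
Rpl7l1 (chr17:46782647-46782676, minus strand): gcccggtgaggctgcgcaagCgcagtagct
Rpl39l (chr16:10170208-10170237, plus strand): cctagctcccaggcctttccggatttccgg
Rps23rg1 (chr8:3567978-3568007, plus strand): tctctgctttgcagagagtcTTTCTCTCac
Within the 300 bases of each promoter, from 250 before the start to 50 after, 4 motifs were searched on both strands. The ETS factor motif CGGAAG was found in 40 of 57 (70.2 percent), against 31.2 percent of the tested genes with an entry. The Sp1 motif GGGCGG was found in 34 of 57 (59.6 percent), against 61.6 percent. The YY1 motif AAGATGG was found in 8 of 57 (14 percent), against 7.37 percent, and the TATA box TATAAA in 5 of 57 (8.77 percent), against 7.86 percent. These are matches of letters and show no binding.

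Read by the brightest probe of each gene, the ribosomal protein genes changed by small amounts after LPS, while dimmer probes of some genes, given further on, changed more. On the deposited ratios 49 of the 86 genes were lower after LPS than in control and 8 were higher at an adjusted p under 0.05 (limma, Benjamini-Hochberg over all 12759 genes), but on the red channel alone (the red signal over its 75th percentile per array) 4 were lower and 15 higher, where 36.8 percent of all genes were lower and 31.8 percent higher. The reading of the red channel drops the green reference and changes the scaling. With each array centred on its median, 35 genes were lower and 15 higher, where 40.2 percent of all genes were lower and 38.9 percent higher, so the share lower was near that of all genes, with a median of -0.10 against 0.00. With normexp background correction 53 genes were lower and 5 higher, and without background subtraction 61 were lower and 5 higher. Of all genes, 40.2 and 41.1 percent were lower in these settings, and 35.4 and 37.0 percent higher. On the ratios 44.3 percent of all genes were called lower and 34.5 percent higher after LPS. The median change of the 86 genes was -0.20 on the log2 scale, or 1.15-fold lower, against -0.09 over all genes tested, and it was 0.12 on the red channel alone, against -0.03. At a change of at least 2-fold besides, 2 genes were higher and 0 lower, where 14.0 and 16.7 percent of all genes were called. The LPS arrays lay wholly below the control arrays for 49 genes and wholly above them for 10, against 41.0 and 31.3 percent of all genes.

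Per array, the median log2 ratio of the members with a value was -0.16, -0.16, -0.07 and -0.10 in LPS replicates a, b, c and d, against 0.04, 0.03, 0.05 and 0.05 in control. The replicate a medians cover 53 members for LPS and 65 for control, and those of replicates b, c and d all 86. Every LPS array lay below every control array on this scale. Relative to the median of all genes on the same array, the values were -0.12, -0.10, 0.03 and 0.01 for LPS, against 0.03, 0.01, 0.03 and 0.03 for control. On that relative scale the LPS arrays of replicates c and d lay within the range of the control arrays. Within the first scan day 37 genes were lower and 6 higher, where 41.2 and 34.3 percent of all genes were, with a median of -0.20 against -0.06 over all genes. Within the second 46 were lower and 8 higher, where 45.7 and 33.3 percent of all genes were, with a median of -0.17 against -0.13. The median of the set thus lay further below that of all genes on the first day than on the second, a difference that was not tested. On the first day 11 members rested on replicate b alone, and others lacked a replicate a value in some groups.

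Calls on the deposited ratios and calls on the red channel opposed each other for 0 genes. Of the 8 genes called higher on the ratios, 6 were also called higher on the red channel, and of the 49 called lower, 4 were also called lower. The sign alone was opposite on the red channel for 20 of those 49. The standard error on the red channel had a median of 0.11 over the 86 genes, against 0.06 for the ratios. The genes called on the deposited ratios and in all 22 other settings tried included Rpl24, Rpl7l1, Rps23rg1 and Rps4l, which were higher, and Rpl3, Rps15 and Rps19, which were lower. Rpl24 has no replicate a value on the ratios, so leaving replicate a out did not change its values. Its fit within the first scan day rested on replicate b alone. Those settings are no separate check of Rpl24.

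**Figure D1:**
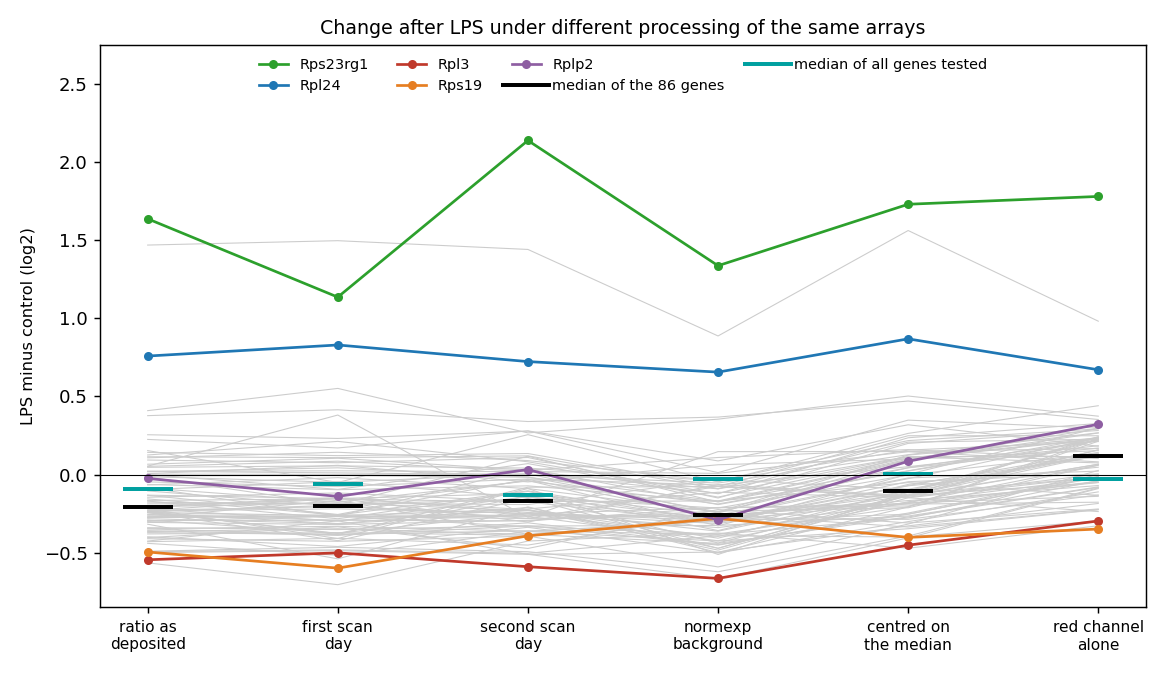
Change after LPS relative to control (log2, y axis) of each of the 86 genes under 6 ways of processing the same arrays (x axis), 1 line per gene. The median of the 86 genes (black bars) was below 0 in the first 5 settings and 0.12 on the red channel alone, while Rpl24 and Rps23rg1 stayed above 0 and Rpl3 and Rps19 below it in all 6.

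Among the proteins of the 60S subunit, 27 of 46 genes (58.7 percent) were lower and 2 higher after LPS. Of the 31 genes of 40S proteins, 18 (58.1 percent) were lower and 2 higher, and of all genes 44.3 percent were lower and 34.5 percent higher. Read from the red channel alone, the 77 genes of both subunits gave 4 lower and 12 higher, where 36.8 and 31.8 percent of all genes were, and their median was 0.12, against -0.21 on the ratios. With the brightest probe of each gene, the 95% interval on the ratios lay within 1.5-fold either way for 77 of the 86 genes.

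Rpl3, a 60S protein near the site where peptide bonds form, had log2 ratios of -0.55, -0.69, -0.63 and -0.70 on LPS arrays, against -0.08, -0.16, -0.03 and -0.13 on control arrays. The groups did not overlap, and Rpl3 was 1.46-fold lower after LPS (log2 change -0.54, SE 0.05, n = 4 each, adjusted p = 3.9e-07). Rps19, which matures the 40S subunit and is mutated in human Diamond-Blackfan anemia, had -0.47, -0.43, -0.23 and -0.42 on LPS arrays, against 0.01, 0.29, 0.02 and 0.11 on control arrays. All 4 LPS values were below all control values, a level 1.41-fold lower (log2 change -0.50, SE 0.07, adjusted p = 2.1e-05).

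Rps15, a protein of the 40S head, stood at -0.27, -0.31, -0.22 and -0.29 on LPS arrays, against 0.15, 0.08, 0.23 and 0.17 on control arrays, which is 1.35-fold lower (adjusted p = 4.6e-07). The red channel changes of these 3 genes were -0.30 for Rpl3, -0.35 for Rps19 and -0.22 for Rps15.

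The largest fall on the ratios, by the brightest probes, was that of Rps21, a small 40S protein. It had -0.81, -0.82, -0.56 and -0.53 on LPS arrays, against -0.15, -0.07, -0.20 and -0.05 on control arrays, and was 1.48-fold lower (log2 change -0.56, SE 0.07, adjusted p = 2.6e-06). Its red channel change of -0.33 was not called (adjusted p = 0.49). Rpsa, the 40S protein also known as the laminin receptor, had -0.37, -0.48, -0.34 and -0.44 on LPS arrays, against 0.04, 0.08, 0.12 and 0.13 on control arrays. It was 1.41-fold lower (adjusted p = 1.3e-06), and its red channel change of -0.09 was not called (adjusted p = 0.36). Of the other Rpsa probes, 2 fell by more, with changes of -1.15 (adjusted p = 2.3e-09) and -0.87 (adjusted p = 8.8e-07), and the third changed by -0.46.

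Other members with special roles follow, with the brightest probe first. Rpl5 and Rpl11 carry 5S ribosomal RNA and bind the p53 regulator Mdm2 when ribosome assembly fails. Rpl5 changed by -0.26 (SE 0.06, adjusted p = 0.00091) and by -0.07 on the red channel. Rpl11, without its LPS value of replicate a, changed by -0.24 (SE 0.08, adjusted p = 0.012) and by 0.12 on the red channel. Rpl13a, which in human myeloid cells leaves the ribosome to silence inflammatory messengers, changed by -0.35 (SE 0.05, adjusted p = 6.2e-06), and by -0.01 on the red channel. Its other 2 probes, both dimmer, changed by -0.88 (adjusted p = 6.7e-10) and -0.95 (adjusted p = 1.8e-10). Rps3, at the entry of the messenger channel, changed by -0.40 (SE 0.05, adjusted p = 6.4e-06), and by -0.22 with no call on the red channel (adjusted p = 0.53), and its dimmer probe changed by -0.80 (adjusted p = 1.6e-07). Rpl10a and Rps25, which have been linked to the translation of particular messengers, changed by -0.41 and -0.27 on the ratios and by 0.03 and 0.06 on the red channel. Rps14, whose loss marks the human 5q- syndrome, changed by -0.24 on 3 LPS and 3 control arrays (adjusted p = 0.024), with 0.16 on the red channel, and it was not called with the replicate as a block (adjusted p = 0.14).

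The other genes called lower were of the same order, and the smallest such change was that of Rpl35 (-0.13, adjusted p = 0.042), which was not called with the replicate as a block (adjusted p = 0.088).

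The stalk proteins, which recruit translation factors to the 60S subunit, were among the genes with no call by their brightest probe. Rplp0, widely used as a reference gene, had -0.03, -0.07 and 0.02 on the LPS arrays of replicates b, c and d, against -0.10, -0.12, -0.22 and -0.06 on control arrays a to d. Its change after LPS was 0.09 (95% interval -0.03 to 0.22, adjusted p = 0.16), and the groups overlapped. A second Rplp0 probe changed by -0.05 (adjusted p = 0.44), and another, with values on all 16 arrays, was called lower (-0.21, adjusted p = 0.011). Rplp1 changed by -0.16 (adjusted p = 0.12) and Rplp2 by -0.02 (adjusted p = 0.68), each on 3 arrays per group. Rplp0 and Rplp2 were called higher on the red channel alone. Rps6 changed by 0.02 (95% interval -0.11 to 0.15) with its brightest probe, but its other 2 probes were called lower, with changes of -0.15 (adjusted p = 0.04) and -0.42 (adjusted p = 5.6e-05). Rpl38 changed by -0.09 (95% interval -0.21 to 0.04). Rps19bp1, which is no ribosomal protein, changed by 0.05 (95% interval -0.22 to 0.32, adjusted p = 0.71).

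Rpl24 had the highest change of the 60S genes. This surface protein of the 60S subunit had log2 ratios of 0.96, 0.84 and 0.87 on the LPS arrays of replicates b, c and d, against 0.13, 0.05 and 0.21 on the matching control arrays, the replicate a spots being left out in all 4 groups. Every LPS value was above every control value, a level 1.69-fold higher (log2 change 0.76, SE 0.06, adjusted p = 5.4e-07). With the replicate a spots kept the change was 0.79, and on the red channel alone 0.67. The other Rpl24 probe rose by 0.51 (adjusted p = 1.8e-06) with values on all 16 arrays. Smaller rises on the ratios were seen for Rpl29 (0.25, SE 0.07, adjusted p = 0.0055), Rps24 (0.22, SE 0.05, adjusted p = 0.0021) and Rps9 (0.14, SE 0.04, adjusted p = 0.01, 3 LPS arrays). Rpl29 and Rps9 were also called higher on the red channel, but with normexp background Rpl29 changed by 0.01 and Rps9 by -0.08, neither called. The other Rpl29 probe changed by -0.07 (adjusted p = 0.21). Rps24 was not called on the red channel (adjusted p = 0.45) or with normexp background (adjusted p = 0.31), and its other 2 probes changed by 0.01 (adjusted p = 0.92) and 0.05 (adjusted p = 0.62).

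Of the 8 paralogs and copies, 4 were higher and 4 lower after LPS, where 34.5 percent of all genes were higher and 44.3 percent lower. Rps23rg1, a copy of Rps23 inserted from its messenger, had 1.23, 1.13, 2.05 and 2.12 on LPS arrays, against 0.05, 0.05, -0.01 and -0.10 on control arrays. It was 3.11-fold higher (log2 change 1.64, SE 0.18, adjusted p = 6.5e-07), with 1.14 within the first scan day and 2.14 within the second. Its parent Rps23 changed by -0.06 (adjusted p = 0.36). Rpl39l, a copy of Rpl39 best known from testis, had 2.43, 1.49, 1.60 and 2.17 on LPS arrays, against 0.80, 0.13, 0.29 and 0.61 on control arrays. It was 2.77-fold higher (log2 change 1.47, SE 0.25, adjusted p = 9e-05), while Rpl39 changed by -0.05 (adjusted p = 0.55). The Rpl39l probe was well above background on 15 of 16 arrays in red but 12 of 16 in the green reference, so the size of its changes is uncertain. Its red channel change of 0.98 was not called (adjusted p = 0.45).

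Rpl7l1, a relative of Rpl7, had 0.49, 0.56, 0.37 and 0.19 on LPS arrays, against -0.06, 0.00, 0.05 and -0.03 on control arrays, and was 1.33-fold higher (adjusted p = 4.3e-05). Rps4l, a relative of Rps4x that RefSeq annotates as a transcribed pseudogene, had 0.35, 0.42, 0.38 and 0.20 on LPS arrays, against -0.02, -0.03, -0.05 and -0.05 on control arrays, and was 1.30-fold higher (adjusted p = 4.2e-06). The parents went the other way on the ratios, Rpl7 by -0.23 (adjusted p = 0.0062) and Rps4x by -0.37 (adjusted p = 2.1e-06), with 0.24 for Rpl7 and -0.04 for Rps4x on the red channel. The remaining copies, Rpl22l1, Rpl32l, Rpl36al and Rps27l, had changes between -0.24 and -0.20 on the ratios, all called lower, and all 4 had the opposite sign on the red channel with no call. A copy can resemble its parent closely, and the probe sequences were not used here, so signal of a parent on the probe of its copy cannot be told apart from the copy itself.

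The difference between a copy and its parent on the same array is free of a shift common to both probes. A shift that differs with brightness or scan gain does not cancel. The probes of Rps4l, Rpl7l1, Rps23rg1 and Rpl39l were read from the low-gain scan on 0 arrays, those of their parents on all 16. The part of this in the differences was not tested. For Rps4l minus Rps4x it averaged 0.80 ± 0.14 on LPS arrays and 0.05 ± 0.02 on control arrays (SD, n = 4 each, two-sided exact permutation p = 0.0286, the smallest that 4 against 4 arrays allow). For Rpl7l1 minus Rpl7 it was 0.42 ± 0.21 on 4 LPS arrays and -0.20 ± 0.08 on 3 control arrays (SD, exact permutation p = 0.0571, which cannot pass 0.05 at these sizes). Rps23rg1 minus Rps23 gave 1.85 ± 0.48 on 3 LPS arrays and 0.01 ± 0.13 on 4 control arrays (SD, exact permutation p = 0.0571). The difference was lower on LPS than on control arrays for Rps27l minus Rps27 (-0.31 ± 0.13 against -0.03 ± 0.06) and Rpl32l minus Rpl32 (0.03 ± 0.05 against 0.16 ± 0.10, SD, n = 3 each, exact permutation p = 0.1 and 0.2). In the remaining pairs, Rpl22l1, Rpl36al and Rpl39l minus their parents, LPS exceeded control by 0.115, 0.212 and 1.63. Over the 24 such tests, 8 pairs in 3 comparisons, the lowest adjusted p was 0.152. With every test at the smallest p its number of arrays allows, it would be 0.0762, so no test here could pass 0.05 after the correction.

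**Figure D2:**
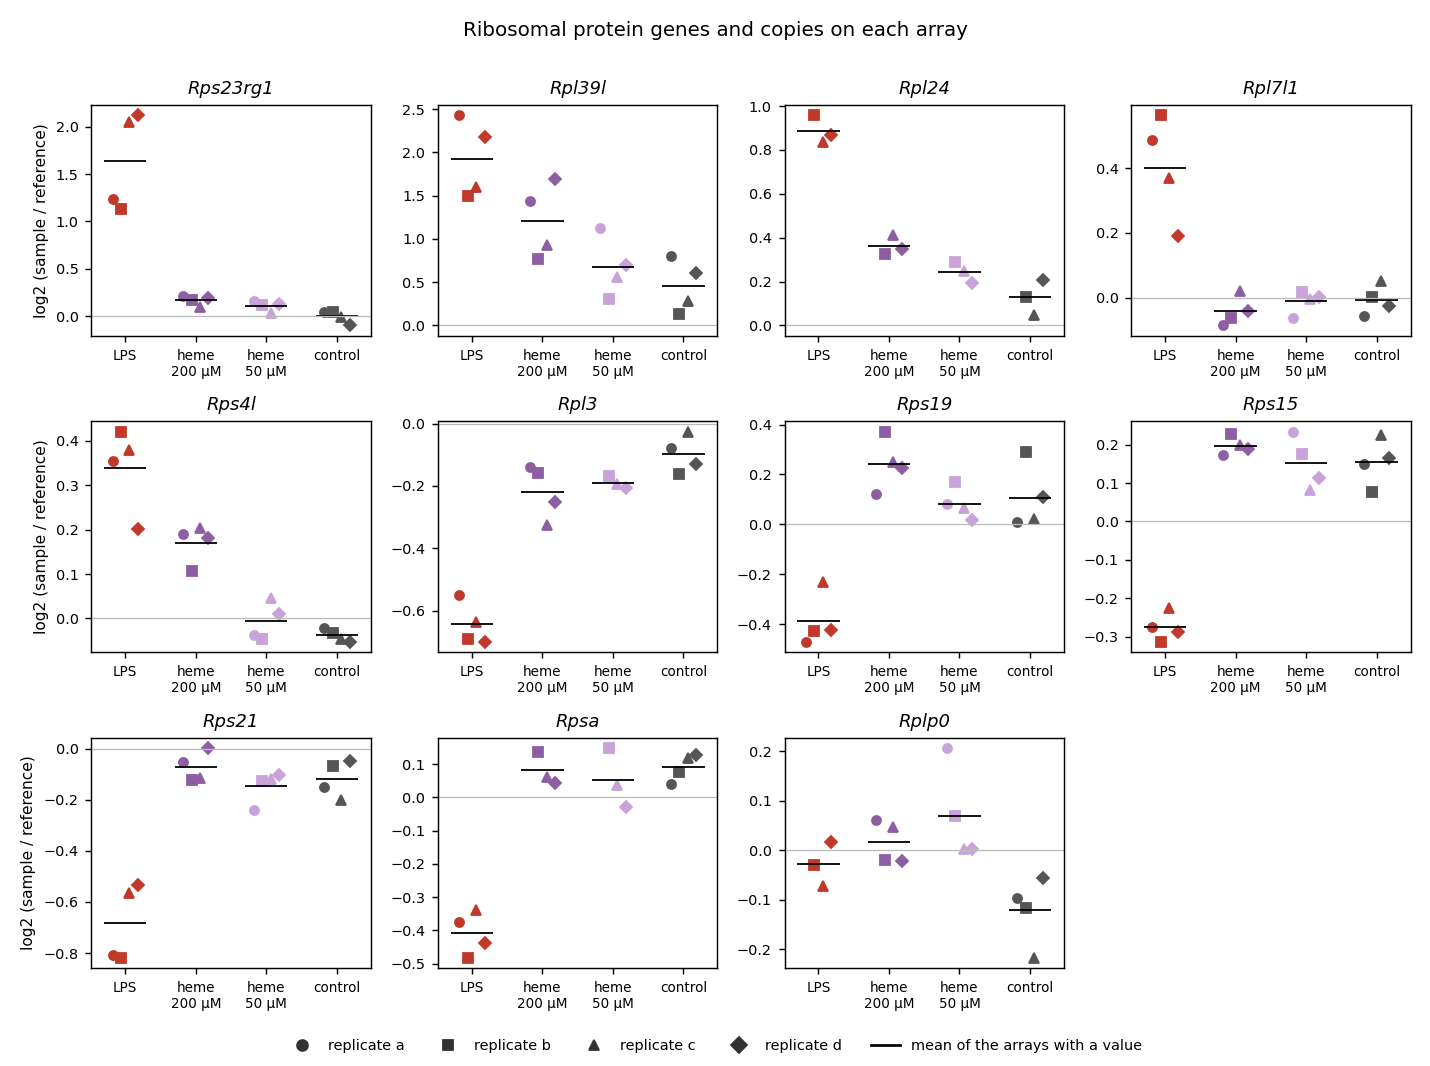
Log2 ratio of sample over untreated reference RNA (y axis) on each array for 11 genes in the 4 groups (x axis), with 1 marker shape per replicate and the mean as a bar. Rps23rg1, Rpl39l, Rpl24, Rpl7l1 and Rps4l lie above control on all LPS arrays with a value, Rpl3, Rps19, Rps15, Rps21 and Rpsa lie below it, and Rplp0 overlaps. On the red channel alone the LPS changes of Rpl39l, Rps21 and Rpsa kept their sign with no call.

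Several genes gave different answers by probe. Of 51 members with several probes, 41 had all probes on 1 side of 0 after LPS. Rps27a, which encodes a fusion of ubiquitin and a 40S protein, gave 0.13 with its brightest probe (adjusted p = 0.15), -0.26 with another (adjusted p = 0.0005) and 1.29 with a dimmer probe that was never read from the low-gain scan (adjusted p = 5.8e-06). That probe was well above background on 4 of 4 LPS arrays and 2 of 4 control arrays, so the size of its change is uncertain. Rpl30, a 60S protein, gave -0.29, -0.35 and, with a dimmer probe, 0.24 (adjusted p = 0.00087). Rpl22, a 60S protein, changed by -0.35 with its brightest probe and -1.94 (adjusted p = 7.4e-13) with a dimmer one, and Rpl27a by -0.40 and, with a dimmer probe, -1.02 (adjusted p = 1.6e-11). Of the 173 probes kept, 116 were called lower and 12 higher, where 43.2 and 35.1 percent of all probes were. By 2-fold or more 3 were lower and 3 higher, where 16.7 and 14.0 percent of all genes were by the brightest probe. The share at 2-fold over all probes was not counted. The 87 probes that did not stand for their gene had a median change of -0.29, with a range of -1.94 to 1.29. Over all probes kept, the median LPS change was -0.22 for the 132 read from the low-gain scan on all 16 arrays and -0.12 for the 27 never read from it.

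Among the 57 genes with a promoter entry, the 12 whose annotated start carries the pyrimidine motif had a median LPS change of -0.10, between -0.56 for Rps21 and 0.05 for Rps27. The other 45 had -0.23, between -0.50 for Rpsa and 0.76 for Rpl24. This is a description on the deposited ratios, and the median of the whole set had the opposite sign on the red channel alone.

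Heme-albumin at 200 µM gave few calls among these genes. At an adjusted p under 0.05, 4 of the 86 were higher than in control and 0 lower, where 10.8 percent of all genes were called higher and 12.0 percent lower. The limma test put 10 members under 0.05 without adjustment, a count not set beside all genes and not read as a result. The median change was 0.02, against -0.02 over all genes. The 95% interval of the change lay within 1.5-fold either way for 85 of the 86 genes, Rpl39l being the exception, and within 1.2-fold for 69. At this dose 1 macrophage marker rose and 3 fell, and 1 neutrophil marker rose. None of the 4 calls was made on the red channel alone. Without control replicate b or c the count was 2, and without replicate c of the 200 µM group it was 1. Of all genes 9.36, 8.80 and 8.78 percent were higher in these fits.

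Rps4l had 0.19, 0.11, 0.20 and 0.18 on the arrays of heme-albumin at 200 µM, against -0.02, -0.03, -0.05 and -0.05 on control arrays, with no overlap (1.16-fold higher, log2 change 0.21, SE 0.05, adjusted p = 0.0058). Rpl24 had 0.33, 0.41 and 0.35 in replicates b, c and d of the 200 µM group, against 0.13, 0.05 and 0.21 in control (1.18-fold higher, log2 change 0.23, SE 0.06, adjusted p = 0.019). Rps15a, a 40S protein, had 0.13, 0.17 and 0.06 in replicates b, c and d of the 200 µM group, against -0.13, -0.05, -0.15 and -0.04 in control replicates a to d. It was 1.16-fold higher (log2 change 0.21, SE 0.05, adjusted p = 0.013), and with the replicate as a block it was no longer called (adjusted p = 0.16). Rpl39l had 1.44, 0.76, 0.93 and 1.69 at 200 µM, against 0.80, 0.13, 0.29 and 0.61 in control. The groups overlapped, and the rise of 0.75 had a standard error of 0.25 (adjusted p = 0.046), with 0.08 on the red channel and 0.07 with normexp background. With the replicate as a block, Rps27 (0.20, adjusted p = 0.043) and Rps28 (0.17, adjusted p = 0.044), 40S proteins measured on 3 arrays per group, were also called.

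Rpl3, Rps19, Rps15 and Rps21, all called lower after LPS, were not called at 200 µM. The change was -0.12 for Rpl3 (95% interval -0.24 to -0.01, adjusted p = 0.13), 0.13 for Rps19 (95% interval -0.03 to 0.29), 0.04 for Rps15 (95% interval -0.05 to 0.14) and 0.04 for Rps21 (95% interval -0.10 to 0.19). Rps23rg1 had 0.21, 0.17, 0.10 and 0.19 on the 200 µM arrays, against 0.05, 0.05, -0.01 and -0.10 in control, a change of 0.17 (95% interval -0.21 to 0.55). Rpl7l1 changed by -0.03 (95% interval -0.17 to 0.11). Rplp0 changed by 0.14 (95% interval 0.02 to 0.26, adjusted p = 0.089).

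At 50 µM of heme-albumin 0 of the 86 genes were called by limma in either direction, where 2.07 percent of all genes were called higher and 1.45 percent lower. By limma 5 members were under 0.05 without adjustment, again a count not set beside all genes. The methods' analysis of variance also called 0 of the 86 genes, where 2.01 percent of all genes were higher and 1.45 percent lower. Changes lay between -0.15 for Rpl27a and 0.22 for Rpl39l. The 95% interval lay within 1.5-fold for 85 of the 86 genes and within 1.2-fold for 71. Rplp0 had 0.21, 0.07, 0.00 and 0.00 on these arrays, against -0.10, -0.12, -0.22 and -0.06 in control, the groups not overlapping, with a change of 0.19 (adjusted p = 0.086).

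Between the doses, 1 gene, Rps4l, was called higher at 200 µM than at 50 µM (log2 change 0.18, adjusted p = 0.038) and 0 genes lower, where 4.2 and 3.41 percent of all genes were. Its values were 0.19, 0.11, 0.20 and 0.18 at 200 µM, against -0.04, -0.05, 0.05 and 0.01 at 50 µM, and the call was lost when any replicate of either dose other than replicate b of the 200 µM group was left out. Rpl39l differed by 0.53 without a call (adjusted p = 0.27), and with a call when the replicate was a block (adjusted p = 0.0062). For 85 of the 86 genes the 95% interval of the difference between the doses lay within 1.5-fold.

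**Figure D3:**
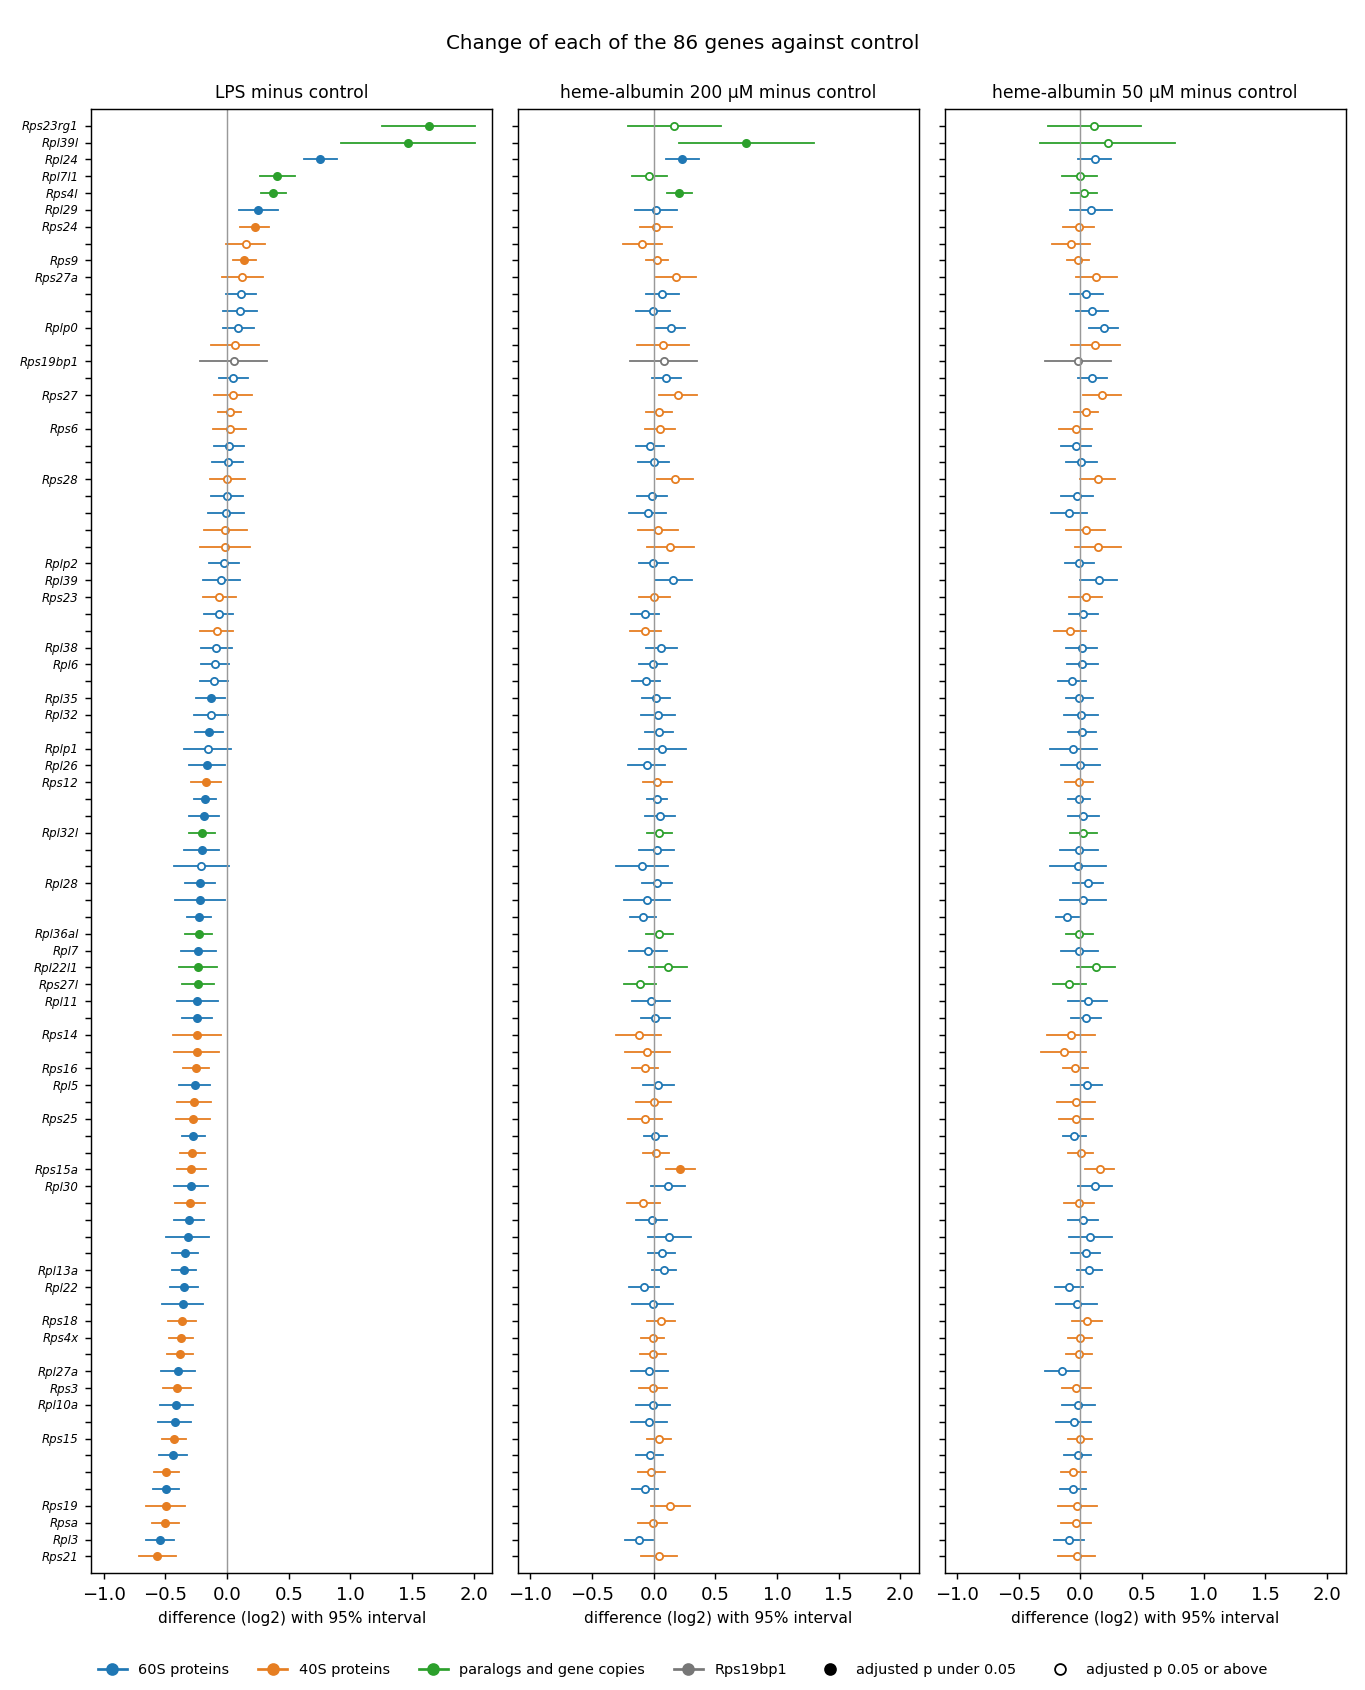
Change of each of the 86 genes relative to control (log2, x axis, with the 95% interval as a line) after LPS, heme-albumin at 200 µM and heme-albumin at 50 µM, with filled points at an adjusted p under 0.05, genes ordered by the LPS change and names beside some of them. On these deposited ratios 49 genes were lower and 8 higher after LPS, where the red channel alone gave 4 lower and 15 higher, while 4 were higher after 200 µM and 0 were called after 50 µM.

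Heme-albumin and LPS were also compared directly, on the arrays used above. At 200 µM, 50 genes were higher than after LPS and 9 lower, where 44.6 and 34.7 percent of all genes were called, but on the red channel alone 3 were higher and 10 lower, where 37.5 and 32.1 percent of all genes were. At 50 µM, 47 were higher than after LPS and 8 lower, where 44.7 and 34.5 percent of all genes were called, but on the red channel 3 were higher and 14 lower, where 37.0 and 31.7 percent of all genes were. Rpl3, Rps15 and Rps19 were higher and Rpl24, Rpl7l1 and Rps23rg1 lower than after LPS at both doses, on the deposited ratios and in all 22 other settings. For Rpl24 the settings without replicate a again reused the same values, and the first scan day rested on replicate b alone. Rps23rg1 was 2.77-fold lower at 200 µM and 2.87-fold lower at 50 µM than after LPS. For Rpl39l the log2 difference from LPS was -0.72 at 200 µM (adjusted p = 0.018) and -1.25 at 50 µM (adjusted p = 0.00039), and for Rpl24 it was -0.53 and -0.64. Rps19 differed by 0.63 at 200 µM and 0.47 at 50 µM, Rps21 by 0.61 and 0.53, and Rpsa by 0.49 and 0.46. Both comparisons share the LPS arrays. Rps15a was 1.42-fold higher at 200 µM than after LPS (log2 difference 0.51, adjusted p = 5.6e-06). With the replicate as a block, Rpl26, Rps27 and Rps27l were also called between 200 µM and LPS and Rpl32, Rps16 and Rps9 were not; between 50 µM and LPS Rpl26, Rpl6 and Rps28 were also called and Rpl35, Rps12 and Rps16 were not.

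Other genes of translation were read on the same ratios. After LPS 44.3 percent of all genes were called lower and 34.5 percent higher, and at 200 µM of heme-albumin 12.0 and 10.8 percent, which are the shares to set beside the counts of these lists. On the red channel alone the shares were 36.8 and 31.8 percent after LPS and 4.83 and 5.85 percent at 200 µM. Of 18 translation factors and other genes of TOP type, 13 (72.2 percent) were lower and 0 higher after LPS, with a median of -0.33. Eef2, the elongation factor that moves the ribosome along, changed by -0.32 (adjusted p = 0.00079) and Eef1a1, which delivers transfer RNA, by -0.12 (adjusted p = 0.17). The largest falls were those of Nap1l1, a histone chaperone (-1.32), Eif4a2, a helicase of initiation (-1.07), and Hnrnpa1, an RNA-binding protein (-0.71). The red channel alone gave 5 of the 18 lower and 0 higher, with a median of -0.11. At 200 µM Tpt1 was the 1 gene of this list called (-0.28).

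Several genes that build ribosomes had larger changes. Of 51 biogenesis genes, 27 (52.9 percent) were lower and 10 (19.6 percent) higher after LPS, with a median of -0.33, and 24 lower and 9 higher on the red channel alone. Dkc1, which modifies ribosomal RNA, changed by -1.98, Utp20 by -1.60 and Wdr12 by -1.57, and the nucleolar proteins Npm1 by -0.98, Ncl by -0.57 and Fbl by -0.37. The largest rises were those of Ubtf, a factor of RNA polymerase I transcription (2.25), Rcl1 (1.70) and Sbds (1.17), which acts late in 60S assembly. At 200 µM of heme-albumin 6 biogenesis genes (11.8 percent, near the share of all genes) were higher, among them Bysl (0.44), Ltv1 (0.33) and Nop56 (0.26), and 1, Ncl (-0.17), was lower, with a median of 0.14 and 1 higher on the red channel alone.

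Of 21 regulators of ribosome production and TOP messengers, 7 (33.3 percent) were higher and 9 (42.9 percent) lower after LPS, shares near those of all genes, with 7 higher and 8 lower on the red channel. Mxd1, which competes with Myc for its partner Max, changed by 3.69, Larp1 by 1.86 and Max by 1.45, and Myc, an activator of ribosome genes, by 0.74 (SE 0.32, adjusted p = 0.045). Rptor, a subunit of the mTOR complex, changed by -1.32, Rps6ka1 by -1.09 and Mlst8 by -1.04. At 200 µM Myc changed by 1.03 (adjusted p = 0.03), Rheb, an activator of mTOR, by 0.32, Eif4e, the cap-binding factor, by 0.29, Ddit4, an inhibitor of mTOR, by -0.31 and Rptor by -0.63, and at 50 µM Rptor changed by -0.35 (adjusted p = 0.0091). Of 77 genes of the mitochondrial ribosome, 43 (55.8 percent) were lower and 16 (20.8 percent) higher after LPS, with a median of -0.27, led by Mrps26 (-1.20) below and Mrpl52 (1.92) above, with 31 lower and 16 higher on the red channel. At 200 µM 8 of the 77 (10.4 percent) were lower and 2 higher, with 0 lower and 2 higher on the red channel.

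**Figure D4:**
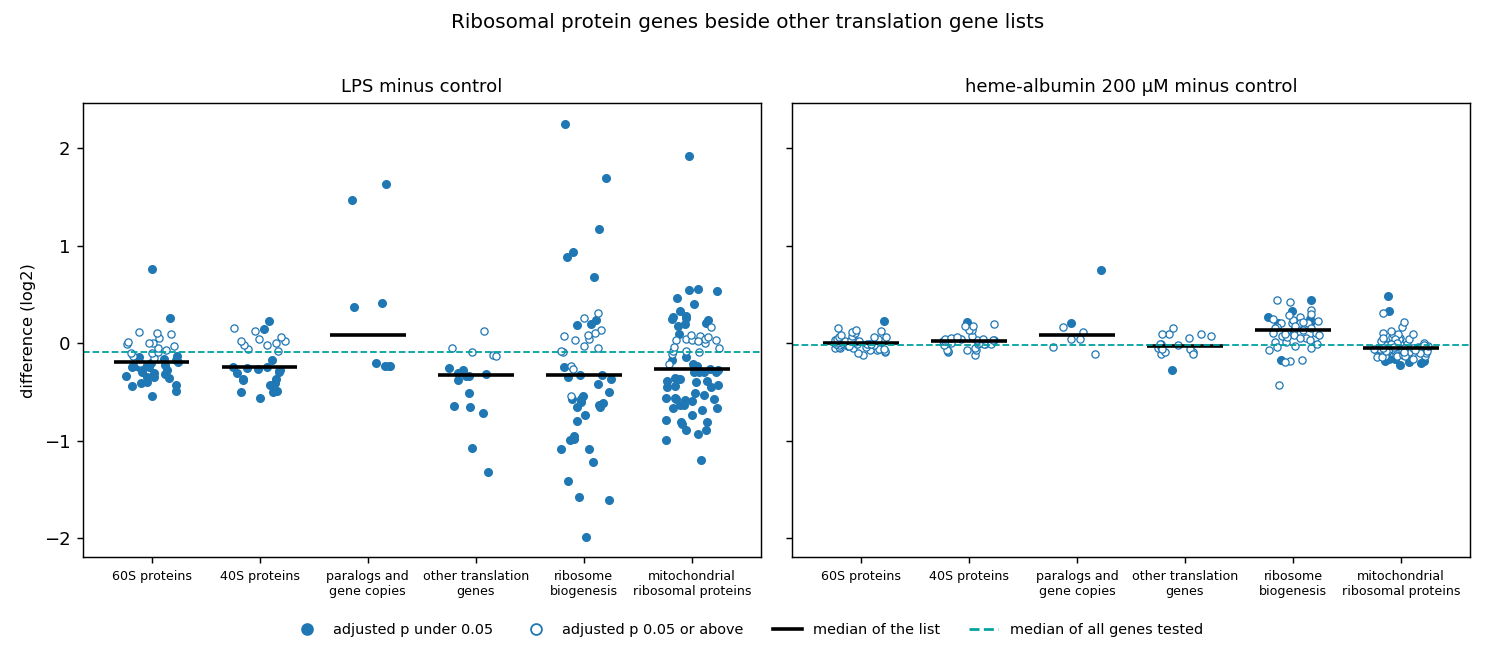
Change relative to control (log2, y axis) of each gene in 6 lists (x axis) after LPS and after heme-albumin at 200 µM, with black bars for the median of a list and a dashed line for the median of all genes tested. After LPS the medians on the deposited ratios were -0.20 for 60S and -0.24 for 40S genes, whose common median turned to 0.12 on the red channel alone, and -0.33 for biogenesis genes. After 200 µM they were 0.00, 0.02 and 0.14.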

How the data were processed

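RNA of 16 macrophage samples was hybridised to 2-colour Agilent arrays with a common reference of untreated cells. Per the file headers, Agilent Feature Extraction 10.7.3.1 made the deposited intensity values by background subtraction, spatial detrending and linear and lowess dye normalization. It also made the deposited log10 ratios of red (sample) over green, which the authors used without further normalization, per the labels. The deposited value table held the same ratios, with a largest gap of 0.

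The ratios were turned to log2, spots marked as outliers were left out, spots of a probe were averaged, and probes not well above background were removed. Accessions were matched to RefSeq symbols, which named 27234 of 39429 probes, and the brightest probe stood for its gene. Each comparison was a contrast of group means in 1 fit over all 16 arrays with limma 3.58.1 (R 4.3.3), with Benjamini-Hochberg adjustment over 12759 genes, and adjusted p-values under 0.05 were called. The fit was tested on simulated data. Tables, exact permutation tests and plots used Python 3.11.15, pandas 2.3.3, scipy 1.17.1 and matplotlib 3.10.9. The number of arrays limits the precision. Promoters came from RefSeq on build GRCm38.p6, while the array design was made on mm9, so no array coordinate is given.

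The members and lists were chosen with earlier results of these data known. Genes were named by rule: the 5 largest rises and falls per comparison among called members, members at 2-fold, copies and their parents, genes whose probes disagree, a set of members with special roles, and the 3 largest changes each way of the other lists, with Myc, Eef1a1, Eef2, Ncl, Npm1 and Fbl. Any other member is named because its call depended on the replicate block, its promoter was shown or it marks the end of a range. A few genes met this rule but are left unnamed, and they stay in the counts of genes called, but not in the counts over named genes.

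Each replicate letter shares a slide, and a and b were scanned on 1 day, c and d on another. On every slide LPS had position 1, heme-albumin at 50 µM position 2, at 200 µM position 3 and control position 4. Treatment and position on the slide therefore cannot be told apart. Deviations of arrays with the same letter correlated at 0.1003 to 0.502 in 5 comparisons, so the letters pair the samples there. Between LPS and control they correlated at 0.0962 to 0.114 and did not meet the rule of over 0.1 for every pair. The lowest of these values is close to that cut, and the LPS and control arrays of a letter share a slide as well. They also share a tag in their titles, as all 4 groups do, and its meaning is not given. Results with the replicate as a block are therefore given for this comparison too. The main counts and intervals come from the fit without this pairing in all comparisons. With the replicate as a block, 5 genes were higher at 200 µM than in control and 2 were higher at 200 µM than at 50 µM. Of all genes 12 and 5.08 percent were. Alternatives changed the background correction (normexp, on median spot signals because mean signals were not used here, or none), the scaling, the channel, the probe choice, the filter, the block, the scan day, the model and the replicates. Keeping outlier spots and leaving replicate a out of all groups were added after seeing the data.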

Additional observations from a re-analysis of the deposited data

Results flagged for a closer look

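In groups of 4 arrays, 1 array stood far from the other 3 by Dixon's test in 6 of 137 groups tested, where chance gives about 1 in 20. Rpl11 stood at 0.368 on the 50 µM array of replicate a, against 0.098 to 0.139 on the other arrays of that group. Rpl22l1 stood at -0.555 on the LPS array of replicate b, against -0.38 to -0.362 on the others. Rpl26 stood at -0.0074 on the control array of replicate b, against 0.142 to 0.17 on the others. Rpl6 stood at -0.0778 on the LPS array of replicate a, against -0.258 to -0.247 on the others. Rps21 stood at -0.239 on the 50 µM array of replicate a, against -0.126 to -0.103 on the others. The median of the members with a value was 0.0595 on the 200 µM array of replicate b, against 0.0662 to 0.0671 on the others, a small distance set beside a very narrow group. The replicate a array of that group had values for 56 members.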

How the results depend on the processing

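Ribosomal protein spots are bright and mostly read from the low-gain scan, and the direction of the whole set after LPS turned on the red channel alone, with the cause not tested. After LPS 5 genes were higher than control and 53 lower with normexp background, where 35.4 and 40.2 percent of all genes were. Without background subtraction 5 were higher and 61 lower, where 37.0 and 41.1 percent of all genes were. The medians were -0.257 and -0.271, against -0.029 and -0.025 over all genes. With arrays centred on the median, which shifts all genes by 0.09, 15 were higher and 35 lower, with a median of -0.103. On the red channel alone 15 were higher and 4 lower, with a median of 0.119. For the other results the cause of a change was not tested. At 200 µM against control, the genes called higher numbered 0 on the first scan day, 1 with normexp background and 0 on the red channel, and 1 was lower on the second scan day. Of all genes 9.04, 5.16 and 5.85 percent were higher in those settings, and 15.1 percent lower on the second scan day. The median was 0.0104 on the second scan day, 0.0521 with normexp background, 0.0345 without subtraction, 0.0339 centred and 0.0285 as mean over probes, and at 50 µM it was 0.0244 with normexp background. Between the doses 2 genes were higher with the replicate block and 0 on either scan day, with normexp background, on the red channel and without replicate a in all groups. Of all genes 5.08 percent were higher with the block and 1.30 to 5.01 percent in the other settings named. At 200 µM against LPS 5 genes were lower on the first scan day. With normexp background 5 were lower and 65 higher, without subtraction 5 were lower and 68 higher, and 3 were higher on the red channel. Of all genes 34.3, 35.8 and 36.0 percent were lower on the first scan day, with normexp background and without subtraction. Higher were 40.05 percent with normexp background, 42.7 percent without subtraction and 37.5 percent on the red channel. Medians were 0.316 with normexp background, 0.307 without subtraction, 0.105 centred, -0.101 on the red channel and 0.241 as mean over probes. At 50 µM against LPS 5 were lower and 63 higher with normexp background, and 5 lower and 66 higher without subtraction. On the red channel 14 were lower and 3 higher. Of all genes 35.5, 36.5 and 31.7 percent were lower in these settings in turn, and 40.1, 42.4 and 37.0 percent higher. Medians were 0.299 with normexp background, 0.283 without subtraction, 0.0798 centred, -0.125 on the red channel and 0.22 as mean over probes.

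Leaving out 1 replicate gave 7 to 10 higher and 44 to 50 lower genes after LPS (median -0.218 to -0.17), 1 to 5 higher at 200 µM (median 0.0117 to 0.0199), medians of -0.0076 to 0.00722 at 50 µM, 0 to 1 higher between the doses (median 0.00212 to 0.0196), 44 to 51 higher and 7 to 9 lower at 200 µM against LPS (median 0.16 to 0.2), and 43 to 48 higher and 8 to 9 lower at 50 µM against LPS (median 0.157 to 0.188). Over all genes the matching shares were 33.1 to 34.15 percent higher and 43.0 to 45.0 percent lower after LPS, and 8.78 to 10.2 percent higher at 200 µM. Between the doses 2.96 to 3.93 percent were higher. Against LPS 43.7 to 45.4 percent were higher and 33.3 to 34.35 percent lower at 200 µM, and 43.3 to 45.4 and 33.5 to 34.2 percent at 50 µM. For LPS against control the replicate letters did not meet the rule for pairing. The replicate block there gave 8 higher and 47 lower with a median of -0.18, where 35.3 and 44.95 percent of all genes were. With this block Rpl35 (adjusted p = 0.088) and Rps14 (adjusted p = 0.14) were not called. In the other comparisons the block changed no call beyond those named in the report.

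Of the genes named in the text, those whose change had the opposite sign in another setting, with a call on the ratios or in that setting, were, after LPS, Rpl10a 0.0266, Rpl11 0.123, Rpl22l1 0.0661, Rpl26 0.047, Rpl32l 0.229, Rpl35 0.0223, Rpl36al 0.0658, Rpl7 0.242, Rplp2 0.322, Rps12 0.116, Rps14 0.158, Rps25 0.0606 and Rps27l 0.00286 on the red channel; Rpl29 -0.00155, Rplp0 -0.168, Rps27a -0.147 and Rps9 -0.0931 without background subtraction, Rps9 -0.0765 with normexp background, Rps6 -0.212 as mean over probes, and Rps19bp1 -0.273 on the second scan day. At 200 µM against LPS they were Rpl10 -0.17, Rpl11 -0.194, Rpl22 -0.0798, Rpl32 -0.269, Rpl32l -0.192, Rpl36al -0.0238, Rpl38 -0.19, Rpl7 -0.256, Rplp2 -0.303, Rps12 -0.0919, Rps16 -0.0148, Rps25 -0.0642 and Rps28 -0.0481 on the red channel; Rpl29 0.04 and Rps9 0.117 without background subtraction, Rpl29 0.0609 and Rps9 0.125 with normexp background, and Rps19bp1 -0.325 on the first scan day. At 50 µM against LPS they were Rpl11 -0.206, Rpl22 -0.119, Rpl32l -0.26, Rpl35 -0.0438, Rpl36al -0.0654, Rpl39 -0.049, Rpl7 -0.266, Rplp0 -0.261, Rplp2 -0.319, Rps12 -0.131, Rps16 -0.0371, Rps25 -0.142, Rps27a -0.266 and Rps27l -0.138 on the red channel; Rps9 0.0823 without background subtraction, Rps9 0.0958 with normexp background, Rps27a -0.203 and Rps6 0.172 as mean over probes, and Rps19bp1 0.231 on the second scan day. Of the other values of named genes, 274 lost a call, 125 gained one and 6276 kept both sign and call.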
